A study of Mus musculus with 6 samples.

Results

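Foxj1 and 6 genes of the RFX family (Rfx1, Rfx2, Rfx3, Rfx4, Rfx5 and Rfx7) were followed in vestibular epithelium of mice exposed to an ototoxic nitrile. These 7 genes were taken by gene symbol from the 52636 genes of the count table. Bulk RNA-seq compared 3 Control mice, which drank plain water, with 3 mice given 30 mM 3,3'-iminodipropionitrile (IDPN) in the drinking water for 8 weeks, to learn how this sensory tissue responds to chronic damage of its hair cells (HCs). All 6 animals were males of the 129S1/SvImJ strain, aged 2 to 4 months when put on IDPN or plain water. Neither a transgene nor any further agent is named for them. Each library came from 1 animal, whose 2 utricles and 6 cristae were pooled, so it mixes HCs, supporting cells and the other cells of these organs. The libraries held 40474847 to 43566332 counts each. The title codes of the 3 Control animals begin alike and differ from those of the IDPN animals, so whatever that beginning marks cannot be told apart from IDPN.

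Cilia are assembled by genes that 2 families of transcription factors switch on. FOXJ1, a forkhead factor, drives the genes of the motile axoneme, the microtubule core with dynein arms that lets a cilium beat. RFX factors bind a palindromic promoter element, the X-box, and drive genes that all cilia share, such as those of intraflagellar transport (IFT) and of the BBSome, the complexes that carry cargo along the cilium. RFX1, RFX2 and RFX3 are close relatives that bind as dimers. RFX1 and RFX3 are needed together for the survival of cochlear HCs, RFX2 is best known from motile cilia and sperm, and RFX4 acts in the developing brain. RFX5 has a different use, since with RFXAP and RFXANK it switches on the genes of MHC class II, and RFX7 has been placed in the response to p53. Each vestibular HC carries a kinocilium, a true cilium with an axoneme, beside its actin-based stereocilia.

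The promoters of the members were examined for these elements, because a regulator can have its own sites. RefSeq windows from 250 bases before to 50 bases after a start (build GRCm38.p6) matched 6 of the 7 members, in 7 windows, and none matched Foxj1. A short form of the X-box, GTTGCC on either strand, called the GTTGCC site here, occurred in the windows of 3 of them, Rfx1, Rfx2 and Rfx3, and was not found in those of Rfx4, Rfx5 and Rfx7. The first 3 sequences below show these sites in the members, in capitals, written 5′ to 3′ on the strand of the gene. The next 3 show genes of the cilium whose expression is given further on. Capitals mark GTTGCC sites (read as GGCAAC on the other strand) or, in Bbs7, a full X-box, searched as GTTNCC, 2 free bases and GGNAAC, inside which a GTTGCC site lies.
Rfx1: gtgggtagcaacaGTTGCCccggtgaggga
Rfx2: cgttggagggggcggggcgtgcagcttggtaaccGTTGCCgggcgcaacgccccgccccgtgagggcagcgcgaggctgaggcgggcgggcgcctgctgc
Rfx3: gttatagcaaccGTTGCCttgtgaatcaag
Fank1: cccggttgtcagGGCAACccgagcgacgcc
Spag16: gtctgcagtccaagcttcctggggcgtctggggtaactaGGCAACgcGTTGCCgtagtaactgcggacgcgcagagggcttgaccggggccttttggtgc
Bbs7: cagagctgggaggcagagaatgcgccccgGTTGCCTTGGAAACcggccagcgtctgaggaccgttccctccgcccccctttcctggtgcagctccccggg

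These stretches lie at chr8:84066824-84066853 (plus strand, Rfx1), chr17:56831059-56831158 (minus strand, Rfx2), chr19:28011118-28011147 (minus strand, Rfx3), chr7:133776858-133776887 (plus strand, Fank1), chr1:69826820-69826919 (plus strand, Spag16) and chr3:36613440-36613539 (minus strand, Bbs7). The GTTGCC site was also a frequent word, held by 12.5% of all 32851 promoter windows and by 12.9% of the 15278 windows of genes tested here. It was held by 45.9% of the 74 windows of a list of motile axoneme genes and by 42.5% of the 40 windows of a list of IFT and BBSome genes, against 10.5% of the 19 windows of reported RFX7 targets. The full X-box in this strict form was rare, in 0.450% of all windows, 2.70% of the axoneme windows and 5.0% of the IFT and BBSome windows, and no member held one. A forkhead core, TGTTTAC on either strand, was found in no member window, in 3.65% of all windows and in 4.05% of the axoneme windows. These are matches of letters and were not tested as binding sites.

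All members but Rfx4 were expressed in the vestibular epithelium at a modest level. Levels were compared between genes as counts divided by size factors (normalized counts) per kilobase of annotated exon. This length joins the exons of all annotated transcripts, 1 for Foxj1 and 17 for Rfx5, and the order of the genes depends on it. Without the division Rfx3 was highest in Control, at 505 ± 43.3 normalized counts, against 348 ± 128 for Foxj1 (SD, n = 3 each). In Control, Foxj1 had the highest level of the 7, at 133 ± 49.0 normalized counts per kilobase (SD, n = 3), above that of 64.3% of all genes tested. Rfx5 followed at 59.8 ± 15.6 per kilobase, Rfx1 at 51.1 ± 11.6, Rfx3 at 45.8 ± 3.93 and Rfx2 at 41.6 ± 2.43 (SD, n = 3 each). The ranges of mean ± SD of neighbours in this order of 4 RFX genes overlapped, and that of Foxj1 lay above that of Rfx5. The 4 lay above 42.2% to 48.9% of the genes tested. Rfx7 was lower, at 11.6 ± 4.02 per kilobase (SD, n = 3), and Rfx4 was at 1.01 ± 0.818 (SD, n = 3). In IDPN the first 2 changed places, with Rfx5 at 74.1 ± 4.73 and Foxj1 at 73.3 ± 19.4 per kilobase (SD, n = 3 each), within each other's spread, and Rfx1 (52.0 ± 4.60) lay beyond the spread above Rfx2 (31.5 ± 6.03) and Rfx3 (29.7 ± 4.68), which did not differ beyond theirs.

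Of the 7 members, DESeq2 called 1 lower in IDPN, Rfx3, and none higher. A gene was called when its adjusted p (Padj, Benjamini-Hochberg over all genes) was under 0.05 and its fold change was above 1.5. Over all 17650 genes tested, 3.42% were called lower and 2.32% higher, or 5.75% in all. The edgeR quasi-likelihood test called none of the members, where it called 2.19% of its genes lower and 1.02% higher. At an unadjusted DESeq2 p under 0.05 there were 2 members, Foxj1 and Rfx3, both lower. The share of all genes at that unadjusted p was not computed, here or for the lists below, so such counts have no background beside them. Foxj1 had the largest estimate and missed the threshold for a call. The estimates of the members other than Foxj1 and Rfx3 were within 1.5-fold of no change. In bulk tissue, fewer cells of a type and less RNA per cell cannot be told apart.

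Rfx3 (ENSMUSG00000040929.16, chromosome 19, 27761721 to 28011166, minus strand), a regulator of ciliary genes with a GTTGCC site in its own promoter window, had 455, 527 and 532 normalized counts in the Control libraries (1, 2 and 3 in order, as for each gene) and 313, 284 and 384 in the IDPN libraries. Every IDPN library lay below every Control library. Of all genes tested, 11.4% were lower in this sense. Its log2-Fold_Change, on the scale of log2 normalized counts, was −0.63 (SE 0.21, 95% interval −1.03 to −0.22, DESeq2 Padj = 0.0396), or 64.8% of the Control level. The call was narrow. It was lost with edgeR (adjusted p = 0.0841) and with size factors proportional to total counts, where the estimate was −0.38 (DESeq2 Padj = 0.453), and of 6 fits with a library removed it was kept in 1, without IDPN 3 (−0.76, Padj = 0.0199). Without Control 1, Control 2, Control 3, IDPN 1 or IDPN 2 the DESeq2 Padj was 0.0629, 0.184, 0.0851, 0.175 and 0.180, with estimates from −0.70 to −0.54.

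Foxj1 (ENSMUSG00000034227.7, chromosome 11, 116330704 to 116335399, minus strand), the regulator of motile axoneme genes, had 246, 305 and 492 normalized counts in Control and 176, 249 and 151 in IDPN. The groups overlapped by a narrow margin, since IDPN 2 lay just above Control 1, and Control 3 stood far above the other 2 Control libraries. The means were 348 ± 128 and 192 ± 50.8 (SD, n = 3 each), and the estimated log2-Fold_Change was −0.86 (SE 0.30, 95% interval −1.44 to −0.28, DESeq2 Padj = 0.0568, edgeR adjusted p = 0.155). Single libraries decided on which side of the threshold it fell. It was called without Control 1 (−1.06, DESeq2 Padj = 0.0274) and without IDPN 2 (−1.09, Padj = 0.0213), while without Control 3 the estimate was −0.52 (Padj = 0.308). Total-count scaling gave −0.68 (DESeq2 Padj = 0.272).

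**Figure D1:**
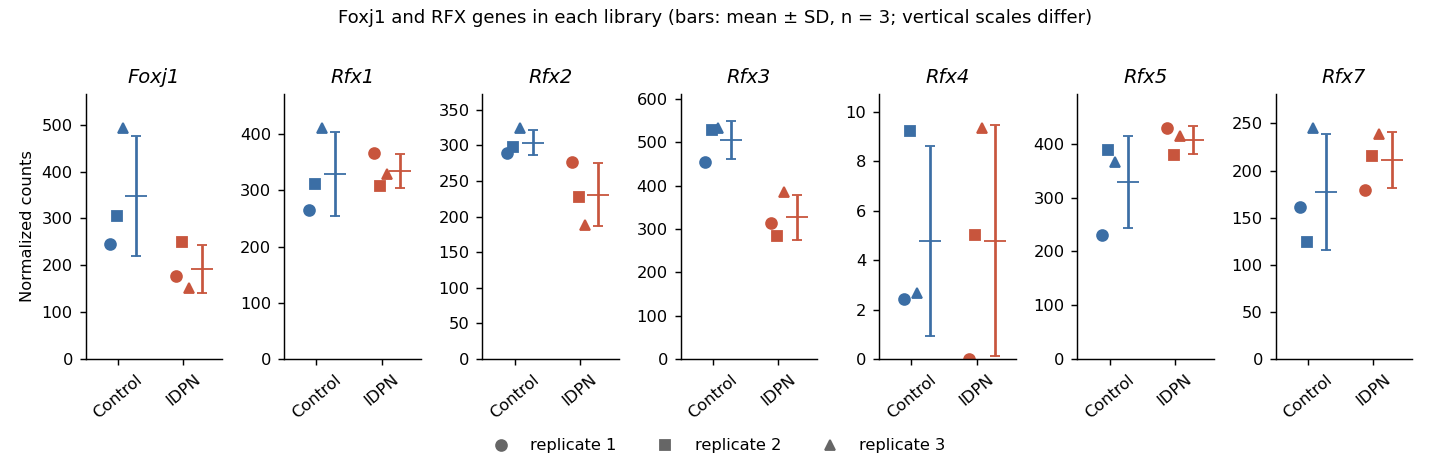
Normalized counts of Foxj1 and 6 RFX genes in each of the 6 libraries, with a panel and a vertical scale from 0 for each gene, symbols for replicates and bars for the mean ± SD (n = 3). The Control and IDPN points do not overlap for Rfx2 and Rfx3, overlap narrowly for Foxj1, and overlap for Rfx1, Rfx4, Rfx5 and Rfx7.

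Rfx2 (ENSMUSG00000024206.14, chromosome 17, 56775897 to 56831013, minus strand), the relative of Rfx3 known from motile cilia, had 290, 298 and 324 normalized counts in Control and 276, 227 and 189 in IDPN. All 3 IDPN libraries lay below all 3 Control libraries, with IDPN 1 close to Control 1. Of all genes tested, 11.4% were separated in this way. The log2-Fold_Change of −0.40 (SE 0.23, 95% interval −0.85 to 0.053, DESeq2 Padj = 0.388) did not pass, and under total-count scaling it was −0.14 (DESeq2 Padj = 0.817).

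Rfx1 (ENSMUSG00000031706.7, chromosome 8, 84066834 to 84096992, plus strand), which acts with Rfx3 in cochlear HCs, had 264, 310 and 410 normalized counts in Control and 366, 307 and 329 in IDPN. The IDPN values lay inside the Control range. The estimate was 0.023 (SE 0.23, DESeq2 Padj = 0.980), and its 95% interval of −0.43 to 0.47 leaves out a 1.5-fold change in either direction, which is 0.585 on the log2 scale. Leaving out 1 library moved it between −0.11 and 0.22. Under total-count scaling it was 0.25 (SE 0.31, DESeq2 Padj = 0.679), and without Control 3 it was 0.22 (SE 0.23). The intervals of both these fits include a 1.5-fold rise, as does that of the fit without IDPN 2 (0.080, SE 0.26). Without Control 1 (−0.11, SE 0.25) the interval includes a 1.5-fold fall. The exclusion in either direction thus holds for the main fit and not for every setting.

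Since scaling moves all genes of a library together, ratios of counts within a library were also formed against Rfx1, a denominator chosen after its values had been seen, and are given without a test. The ratio of Rfx3 to Rfx1 was 1.72, 1.70 and 1.30 in Control and 0.855, 0.925 and 1.17 in IDPN. Foxj1 to Rfx1 was 0.931, 0.981 and 1.20 in Control against 0.482, 0.810 and 0.459 in IDPN. Rfx2 to Rfx1 was 1.10, 0.959 and 0.790 against 0.756, 0.739 and 0.572. For these 3 ratios every IDPN library was below every Control library. These ratios do not depend on the scaling and are not corrected for gene length. The ratios of Rfx5 and Rfx7 to Rfx1 overlapped between the groups, as did that of Foxj1 to Rfx3, at 0.681 ± 0.212 in Control against 0.611 ± 0.245 under IDPN (n = 3 each, SD).

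Rfx5 (ENSMUSG00000005774.12, chromosome 3, 94954075 to 94961561, plus strand), the MHC class II regulator, had 230, 389 and 367 normalized counts in Control and 429, 379 and 415 in IDPN. The groups overlapped, with Control 1 lowest. The log2-Fold_Change was 0.31 (SE 0.24, 95% interval −0.15 to 0.77, DESeq2 Padj = 0.569), and 0.11 without Control 1. An antisense gene, B230398E01Rik, shares 26.8% of its exon length. The protocol as described marks no strand, so reads there cannot be assigned by strand, and the antisense gene was given a mean of 3.20 normalized counts.

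Rfx7 (ENSMUSG00000037674.15, chromosome 9, 72532240 to 72622937, plus strand), the member placed in the p53 response, had 161, 125 and 245 normalized counts in Control and 180, 215 and 239 in IDPN. All IDPN values lay inside the Control range. The estimate was 0.25 (SE 0.29, 95% interval −0.32 to 0.82, DESeq2 Padj = 0.758), and it ran from 0.047 without Control 2 to 0.56 without Control 3 (DESeq2 Padj = 0.233).

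Rfx4 (ENSMUSG00000020037.15, chromosome 10, 84756062 to 84906538, plus strand), the brain member, had only 2, 8 and 3 counts in Control and 0, 5 and 10 in IDPN, before scaling. DESeq2's filter on low counts left it without a Padj, and the 95% interval of its estimate ran from −2.76 to 2.76, so a difference was not detectable at this depth. The 2 RFX genes outside the 7 members were lower still. Rfx6, known from the pancreas, had 0 counts in all 6 libraries, where a count of 0 allows up to 3 per library (counting error only, without molecular identifiers), and Rfx8 had 4 counts in IDPN 1 and 0 elsewhere.

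**Figure D2:**
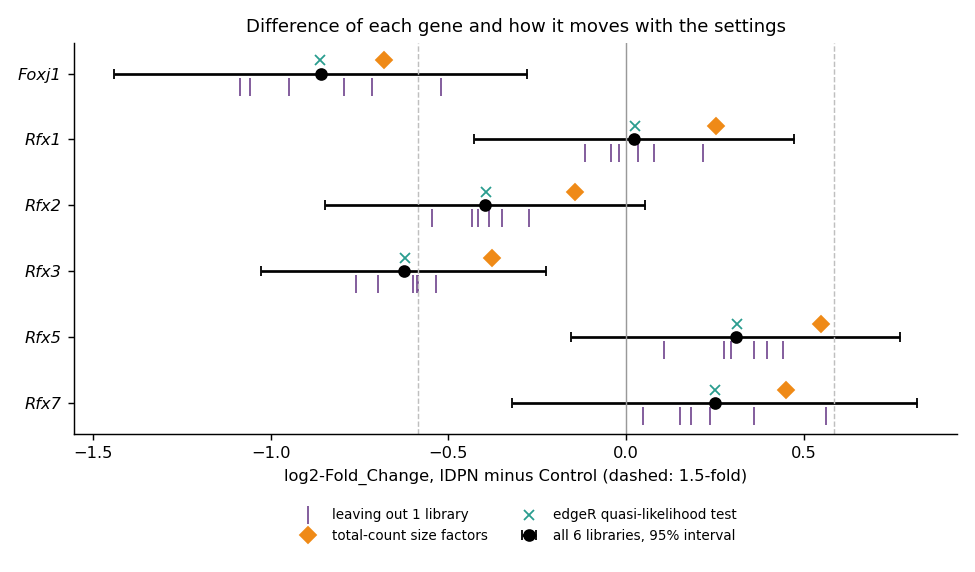
Log2-Fold_Change (IDPN minus Control) of the 6 members with a Padj. Black points and bars give the DESeq2 estimate from all 6 libraries with its 95% interval, crosses the edgeR estimate, diamonds the estimate under total-count scaling, ticks the 6 estimates without 1 library, and dashed lines a 1.5-fold change. The intervals of Foxj1 and Rfx3 lie below 0, those of the other 4 span 0, and total-count scaling moves every estimate upwards.

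Among the genes that these factors are known to drive, those of the motile axoneme differed most. The list held 83 genes of dynein arms, arm assembly, radial spokes, central pair and other axonemal proteins, of which 80 were abundant enough to be tested. DESeq2 called 37 of them lower in IDPN (46.3%, against the 3.42% of all genes) and 0 higher, and edgeR called 30 lower and 0 higher. This list, like the others, was chosen with earlier results of these data known, so these shares describe the list and are not a test. The IDPN libraries were all below the Control libraries for 53 of the 80, where this held for 11.4% of all genes tested. The median log2-Fold_Change was −0.65, where that of all genes tested was 0.015. Total-count scaling left 10 calls and a median of −0.40, at a setting where the median of all genes tested was 0.27. The median deviation of the axoneme genes from the Control mean was −0.060, −0.024 and 0.084 on the log2 scale in Control and −0.68, −0.69 and −0.70 in IDPN.

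Cfap126, a ciliary gene that is also known from stereocilia development, had 2952 ± 380 normalized counts in Control and fell to 1018 ± 41.3 (n = 3 each, SD, log2-Fold_Change −1.54, DESeq2 Padj = 2.58e-18). Spag16, a central pair gene with 2 GTTGCC sites in the promoter stretch shown above, fell from 331 ± 55.7 to 118 ± 20.96 (−1.49, DESeq2 Padj = 4.33e-07). Cfap57, at 54.7 ± 12.0 and 17.6 ± 11.8, had a log2-Fold_Change of −1.65 (DESeq2 Padj = 0.0439, edgeR adjusted p = 0.131). The other called genes included Tekt2 (−1.21), Rsph4a (−1.38) and Dnah5 (−0.78), named here after their values were seen. Hydin (0.26, DESeq2 Padj = 0.593), of the central pair, and Dnah11 (0.31, DESeq2 Padj = 0.651), a dynein heavy chain, likewise picked afterwards, were not called. In the promoter windows of the axoneme genes called lower the GTTGCC site was present in 37.8% of 37 windows, and in those not called in 51.4% of 35.

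The IFT and BBSome genes, which RFX factors are known to drive, moved less. Of 44 genes, all tested, 4 were called lower and 0 higher, or 9.09% against 3.42% of all genes, and edgeR called 3 lower. The median log2-Fold_Change was −0.22. For 19 of the 44 every IDPN library lay below every Control library, a larger share than the 11.4% of all genes tested. Ttc30a1, an IFT gene, had 973 ± 116 normalized counts in Control and fell to 542 ± 75.5 (n = 3 each, SD, log2-Fold_Change −0.84, DESeq2 Padj = 0.000462). Wdr34, of the IFT dynein, fell by 0.67 on the log2 scale (DESeq2 Padj = 0.00359). Kifap3, of the kinesin-2 motor, fell by 0.59 (Padj = 0.00183). Bbs7, a BBSome subunit with the full X-box shown above, fell from 500 ± 60.6 to 320 ± 50.9 (SD, n = 3 each, −0.64, DESeq2 Padj = 0.0418, edgeR adjusted p = 0.0864). Under total-count scaling none of the 44 was called and the median was 0.039, where that of all genes tested was 0.27, so the list lay below all genes under both scalings. At an unadjusted DESeq2 p under 0.05, 16 were lower and 0 higher. Without Control 1 or IDPN 3, 2 genes were called.

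**Figure D3:**
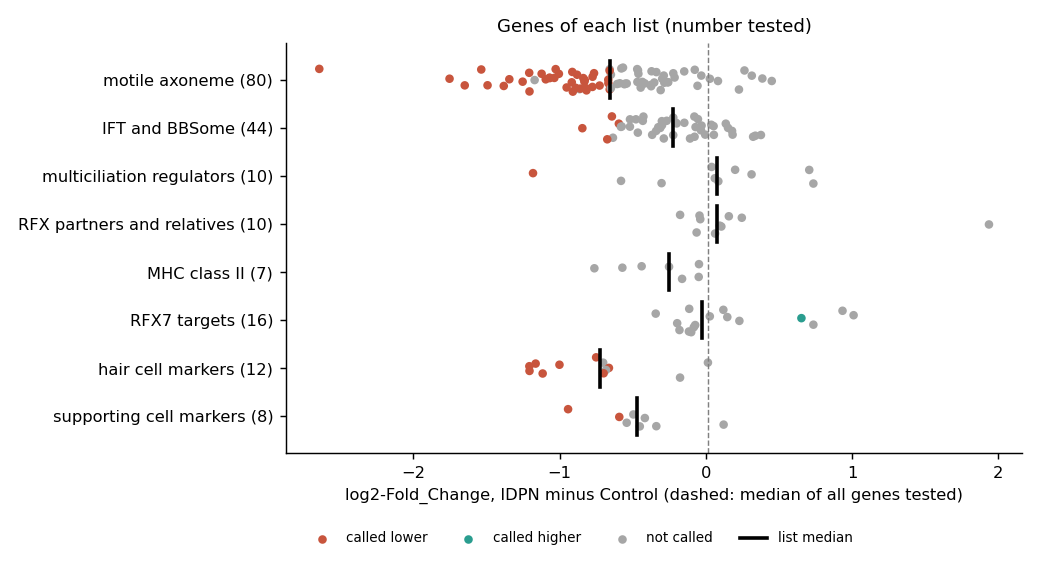
Log2-Fold_Change (IDPN minus Control) of each tested gene in 8 lists, with points coloured by the DESeq2 call, a black bar at each list's median and a dashed line at the median of all genes tested. The axoneme list has 37 of its 80 points called lower, the IFT and BBSome list 4 of 44, and the MHC class II list and the list of RFX partners have none.

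**Figure D4:**
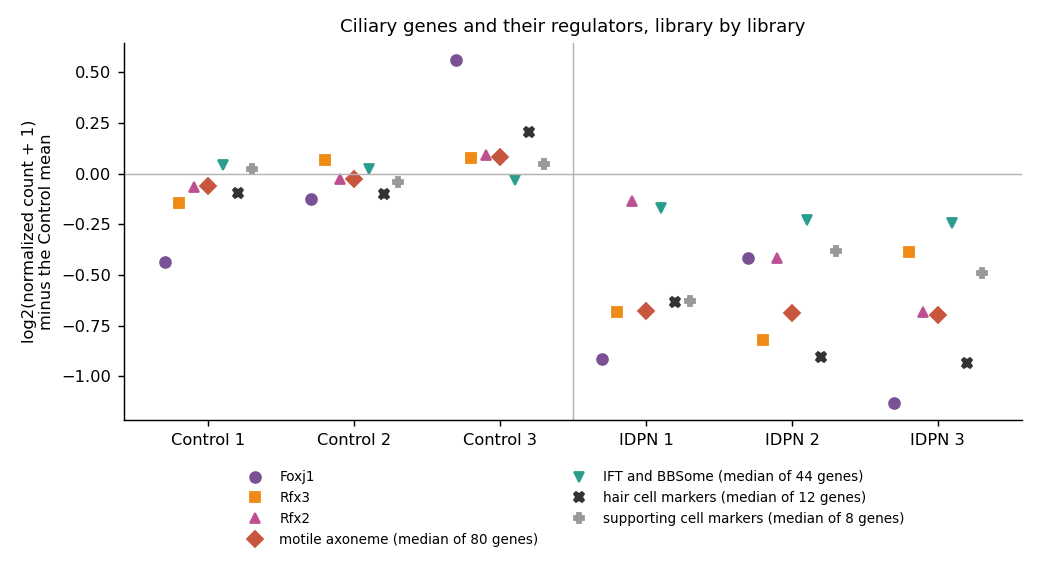
Deviation of Foxj1, Rfx2 and Rfx3, and of the median gene of 4 lists, from the Control mean in each library, as log2(normalized count + 1). The axoneme median lies between −0.70 and −0.68 in the 3 IDPN libraries and between −0.060 and 0.084 in Control. A median over many genes varies less than a single gene, so the spread of the points of Foxj1, Rfx2 and Rfx3 cannot be compared with that of the lists.

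Genes that serve multiciliation, the making of many motile cilia by 1 cell, ranged from not detected to well expressed. Of 16 such genes, Gmnc (a geminin relative at the top of that programme) and Cdc20b had 0 counts in all 6 libraries, and Mcidas, Deup1, Myb and Trp73 had means of 0.818, 2.67, 3.79 and 2.12 normalized counts. The 10 genes tested had a median log2-Fold_Change of 0.074. Of them 1 was called lower and 0 higher, where 3.42% of all genes tested were called lower. That gene, Fank1, an ankyrin repeat protein known from testis, had 288 ± 53.4 normalized counts in Control and fell to 127 ± 7.55 (n = 3 each, SD, log2-Fold_Change −1.18, DESeq2 Padj = 0.000118). The cell cycle factors E2f4 (0.31, DESeq2 Padj = 0.648) and E2f5 (0.061, DESeq2 Padj = 0.926), which also serve multiciliation, were expressed and not called.

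The partners of RFX5 and its targets did not pass the test. Of 12 partners and relatives 10 were tested, 0 were called by DESeq2 or edgeR and 0 had an unadjusted DESeq2 p under 0.05, and the median was 0.080. Rfxank was at 529 ± 57.1 normalized counts in Control against 507 ± 26.1 under IDPN, and Rfxap at 70.4 ± 14.01 and 68.6 ± 16.3 (SD, n = 3 each). Ciita, the coactivator of MHC class II, had a mean of 9.73. Of the 10 MHC class II genes 7 were tested and 0 were called by DESeq2 or edgeR (1 at an unadjusted DESeq2 p under 0.05), with a median of −0.25 and 7 estimates below 0. H2-Eb1 had the largest of these, at 406 ± 32.7 and 240 ± 93.3 normalized counts (SD, n = 3 each, log2-Fold_Change −0.76, DESeq2 Padj = 0.0902). Without IDPN 2, 1 MHC class II gene was called lower. Macrophage markers, which go with MHC class II cells, summed to 2077 to 2722 normalized counts in Control and 2341 to 3414 in IDPN, with 0 of 9 called by DESeq2 or edgeR and 3 higher at an unadjusted DESeq2 p under 0.05. Their part in these values was not tested.

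Of 17 reported targets of RFX7, 16 were tested and 1 was called higher, where 2.32% of all genes tested were called higher. That gene, Mxd4, a repressor of the MAX network, had 1192 ± 224 normalized counts in Control and rose to 1877 ± 236 (n = 3 each, SD, log2-Fold_Change 0.65, DESeq2 Padj = 0.0161, edgeR adjusted p = 0.0714). The call was lost without Control 1 or without IDPN 2. The list's median was −0.023, with 8 estimates on each side of 0.

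The genes whose profiles over the 6 libraries were closest to each member were sought among 11139 genes with a mean of at least 100 normalized counts, by the root mean square difference of gene-centred log2 values. The genes closest to Foxj1 were Popdc3 (0.169), Tex33 (0.176) and Adcy2 (0.178), all with a high value in Control 3. Those closest to Rfx3 were Atg10 (0.047), Nat14 (0.054) and Pcbp3 (0.071). For Rfx2 they were Panx1 (0.059), Slc25a14 (0.063) and Ddr2 (0.065), and for Rfx1 they were Taf3 (0.046), Phf21a (0.049) and Vps8 (0.050). For Rfx5 they were Acap3 (0.049) and Haus6 (0.069), and for Rfx7 they were Hivep2 (0.052), Otud1 (0.086) and Zfp516 (0.087). The distance to the nearest gene was largest for Foxj1. This distance is not scaled to a gene's own spread over the libraries, which for Foxj1 included the high Control 3. No gene of the motile axoneme list was among the 3 closest to Foxj1. A choice of 3 from 11139 genes cannot show whether Foxj1 followed that list.

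Cell type markers were read beside these results. All 12 HC markers were detected, with 11 estimates below 0 and 1 above. DESeq2 called 8 of the 12 lower and 0 higher (edgeR called 7 lower). Of all genes tested, 3.42% were called lower and 2.32% higher. The median of the HC markers was −0.73, and their sum lay between 23586 and 27149 normalized counts in Control and between 15005 and 15929 in IDPN. Pou4f3, an HC transcription factor, fell from 6354 ± 494 to 3174 ± 79.6 (SD, n = 3 each, log2-Fold_Change −1.001, DESeq2 Padj = 9.34e-10), whereas Myo7a, the HC myosin, was at 799 ± 239 and 808 ± 133 (0.015, DESeq2 Padj = 0.987). All 8 supporting cell markers were detected, with 7 estimates below 0 and 1 above. Of these markers 2 were called lower (0 by edgeR), and 5 were lower and 0 higher at an unadjusted DESeq2 p under 0.05. Their median was −0.47, with sums of 363764 to 539988 in Control and 263280 to 319080 in IDPN. Airway and middle ear markers, which would come with multiciliated epithelium, summed to 43.6 to 53.4 in Control and 11.0 to 24.3 in IDPN, with Scgb1a1, Muc16 and Reg3g at 0 in every library and 0 of 8 called by DESeq2 or edgeR. The only one with a Padj was Muc5b, a mucin, at 40.9 ± 15.8 and 13.4 ± 8.02 (SD, n = 3 each, log2-Fold_Change −1.60, DESeq2 Padj = 0.108), which was lower at an unadjusted p under 0.05. The 7 markers of ependyma, choroid plexus or brain summed to 1653 to 3329 in Control and 3553 to 8812 in IDPN, with 1 called higher, Kcnj13 (0.75, DESeq2 Padj = 0.00842, edgeR adjusted p = 0.0594), and Tmem212, of ciliated ependyma, at 0 in every library. The part of HC and supporting cell content in the values of Foxj1, Rfx3 and the ciliary genes was not tested.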

How the data were processed

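Total RNA (6 to 11 ng) from each animal was copied with an oligo-dT SMART-seq2 protocol without molecular identifiers, with 8 and then 12 amplification cycles. The authors aligned paired reads to GRCm38 with STAR 2.5.3a and quantified genes with RSEM 2.3.0 on GENCODE M15. The authors deposited the estimated counts per gene as whole numbers, neither normalized nor filtered, with totals of 40474847 to 43566332 and size factors of 0.825 to 1.21. RSEM divides reads shared by several genes. DESeq2 1.42.0 (R 4.3.3; Wald test, median-of-ratios size factors, no covariate), the tool the study used, was fitted to all 52636 genes, and edgeR 4.0.16 was the first alternative. Called genes had Padj under 0.05 and a fold change above 1.5. Intervals are 95% Wald intervals. The labels name 1 batch and separate animals. Exon lengths and coordinates came from GENCODE M21 on the same build. Lists (gene names in older form where needed) were described by counts and medians. Named were the members, up to 4 called genes of each pathway list with the largest changes, a mean of at least 20 normalized counts and no overlap between groups, and the 3 closest profiles per member, of which 1 axoneme gene and 1 profile close to Rfx5 are not reported here; genes named otherwise, markers included, were picked after their values were seen. Members and lists were chosen with earlier results of these data known. In simulated counts with 200 of 16202 genes changed 4-fold, DESeq2 recovered 97.0% and 18.8% of its 239 calls were false. For edgeR these were 96.0% and 7.69% of 208. The changed genes were drawn from the more abundant ones. Smaller changes, such as those estimated for the members, were not simulated, so their recovery is not known.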

Additional observations from a re-analysis of the deposited data

How the results depend on the processing

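TMM factors and a filter of at least 10 counts in 3 samples changed no member's call. Over all genes, DESeq2 called 410 higher and 604 lower. edgeR called 166 and 357, total-count scaling 609 and 214, and the test against a fold change of 1.5 called 34 and 111. Higher calls were thus 40.4% of all calls, but 74.0% under total-count scaling. Rfx3 lost its call with edgeR (−0.62), total-count scaling (−0.38), independent filtering off (−0.63, Padj = 0.0573) and the test against 1.5-fold (−0.63). Under total-count scaling, lower calls fell to 10 of the axoneme, 0 of the IFT and BBSome, 4 of the HC, 0 of the neuron and 1 of the supporting cell list, with 3 melanocyte and 1 stroma marker higher. With the median of all genes tested at 0.27 there, medians moved to −0.40 (axoneme), 0.039 (IFT and BBSome), 0.32 (RFX partners), 0.22 (RFX7 targets), 0.33 (multiciliation), −0.48 (HC), −0.25 (supporting cell), −0.34 (neuron), −0.11 (dark cell), 0.67 (stroma), 0.72 (macrophage) and 1.01 (ependyma). The test against 1.5-fold left 5 axoneme, 1 HC and 0 IFT and BBSome, multiciliation, neuron, supporting cell, ependyma or RFX7 target calls. edgeR made 0 RFX7 target, ependyma and supporting cell calls, the supporting cell list kept 1 with independent filtering off, and 2 RFX7 targets were called with the Cook's distance filter off.

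Without 1 library, 234 to 611 genes were called higher and 436 to 720 lower. Estimates ran from −1.09 to −0.52 for Foxj1, −0.76 to −0.54 for Rfx3, −0.54 to −0.27 for Rfx2, 0.11 to 0.44 for Rfx5 and −0.95 to 0.89 for Rfx4. Calls lower numbered 31 to 35 for axoneme (median −0.69 to −0.58), 2 to 5 for IFT and BBSome (−0.26 to −0.17), 0 to 1 for MHC class II, 7 to 9 for HC (−0.93 to −0.70), 1 to 4 for supporting cell (−0.61 to −0.37), 1 to 3 for neuron, 0 to 3 for Schwann cell (−0.70 to −0.17), 0 to 2 for dark cell and 0 to 1 for airway markers. Calls higher numbered 0 to 2 for RFX7 targets and 0 to 1 for ependyma, melanocyte and neuron. The RFX partner median ran from −0.086 to 0.15 and the macrophage median from 0.20 to 0.56. No paired analysis was made, because the groups held separate animals and the labels name no pairs. With 3 animals a group, the counts of Rfx4 were too few to show a difference.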

Other observations

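Among markers of the other cell types in the dissected tissue, genes were called for neurons, and the part of these cells in the ciliary values was not tested. The 6 neuron markers summed to 4916 to 5123 normalized counts in Control and 3101 to 3402 in IDPN. Of 5 tested, 3 were called lower (2 by edgeR) and 0 higher, where 3.42% of all genes tested were called lower. The median log2-Fold_Change of the 5 was −0.59, with 4 estimates below 0 and 1 above. The 3 called were Nefl, Nefm and Snap25. Prph went the other way (1.51, DESeq2 Padj = 0.148), at a low mean of 24.7, with each IDPN library above all Control libraries. It was higher at an unadjusted DESeq2 p under 0.05. Tubb3, at a mean of 9.47, was at −0.20 (DESeq2 Padj = 0.953). The 5 Schwann cell markers summed to 93486 to 214341 in Control and 82747 to 99119 in IDPN, where Control 1 was highest, with a median of −0.56. The 5 dark or transitional cell markers had a median of −0.44, the 5 stroma markers one of 0.36 and the 4 melanocyte markers one of 0.64. In these last 4 lists DESeq2 and edgeR called 0 genes, while at an unadjusted DESeq2 p under 0.05 there were 3 lower Schwann cell, 2 lower dark cell, 1 higher stroma and 2 higher melanocyte markers. The macrophage median was 0.50.

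Ttr, the transthyretin gene that choroid plexus expresses strongly, had 3.64 normalized counts in Control 1 and between 1249 and 6084 in the other 5 libraries, so its level varied more within Control than any of the 7 members did.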
